A study of Mus musculus with 24 samples.

Results

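The comparison set parental cells of the SMB medulloblastoma lines against primary medulloblastoma (MB), the cerebellar tumor from which such lines are made. It used 11 of the 24 arrays of the study, chosen by their titles alone: 3 arrays of primary MB and 8 arrays of parental SMB cells. SMB21 gave 4 of these arrays, SMB55 gave 2 and SMB56 the other 2. The arrays of growth factor treated and RAS transformed SMB cells and of normal cerebellum entered only where they are named.

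The tumors were Ptch1 mutant, labelled adult and taken from tumor-bearing mice. They were snap-frozen as whole tissue, so a tumor array measures tumor cells together with whatever vessel, immune and nerve cells lay between them. The SMB lines came from tumors that arose on their own in Ptch+/- mice, were loosened with accutase and grew as neurospheres in serum-free DMEM/F12 medium with B27, and they too are labelled Ptch1 mutant and adult. The parental cells were kept without EGF, bFGF or heparin. Both groups thus carry the Ptch1 mutation, and each line is a single derivation, so the lines are 3 independent sources at most. The titles call the arrays biological replicates without naming cultures or animals. The p-values thus measure only the spread between the tumor arrays and between the means of the lines, which may be technical. The spread between arrays of the same line does not enter them, or the standard errors, unless a fit to single arrays is named. The study asked how far SMB cells keep the expression profile of the tumor in the animal.

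Ptch1 is the receptor that holds Smo, and through it the Gli transcription factors, in check until a Hedgehog ligand binds. Granule neuron precursors of the cerebellum divide in response to Sonic hedgehog (Shh) and then leave the cycle to become granule neurons, and when Ptch1 is lost they can go on dividing and form medulloblastoma. In the animal the tumor grows among microglia, vessels and partly differentiated neurons. In culture the cells take nutrients, oxygen and lipids from the medium.

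Levels are log2(intensity + 16) of 1 probe set per gene, and differences are parental SMB minus primary MB on that scale, which understates the change of genes near the lowest level of 4.72. The median level over genes was 8.36. The arrays of a line were averaged, so 3 line means stood against 3 tumors, and each difference is given with its standard error (SE) from limma and an adjusted p, the Benjamini-Hochberg p over all 12393 genes. A gene is called at an adjusted p under 0.05. Where all 8 parental arrays lay above or below all 3 tumors, the arrays are said not to overlap.

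Not all arrays of a line were alike. Eif2s3y, Kdm5d and Uty are Y-linked genes, shown to compare the arrays of 1 line, and they were chosen after their values were seen. On SMB21 array 1 they stood at 9.54, 9.14 and 7.97, and on SMB21 arrays 2 to 4 all 3 genes lay between 4.93 and 5.15. On SMB56 array 1 Eif2s3y was 4.93 with Kdm5d at 8.73 and Uty at 8.65, and on SMB56 array 2 the values were 9.23, 8.25 and 7.82. Both SMB55 arrays were low in all 3 genes, at 5.16 or below. So the arrays of SMB21 and of SMB56 disagreed within the line, though the labels call them replicates of 1 line. What underlies this was not tested. The growth factor arrays, all numbered 1, had the pattern of array 1 of their line, with 9.98, 8.86 and 7.78 in SMB21 and 5.06, 8.26 and 8.35 in SMB56. The RAS arrays were low in all 3 genes, at 4.85 to 5.02 in SMB21, 4.87 to 5.08 in SMB55 and 4.88 to 5.68 in SMB56. In SMB56 they were thus unlike either parental array. The tumors, from separate arrays of whole tissue, differed too: Eif2s3y was 9.97, 5.10 and 5.74 and Kdm5d was 8.82, 5.14 and 8.94 in tumors 1, 2 and 3. Xist, an X-linked RNA, was 6.27, 8.86 and 6.53 in these tumors and 5.88 to 6.79 on the parental arrays. Whether the tumors came from animals of different sex was not tested.

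**Figure D1:**
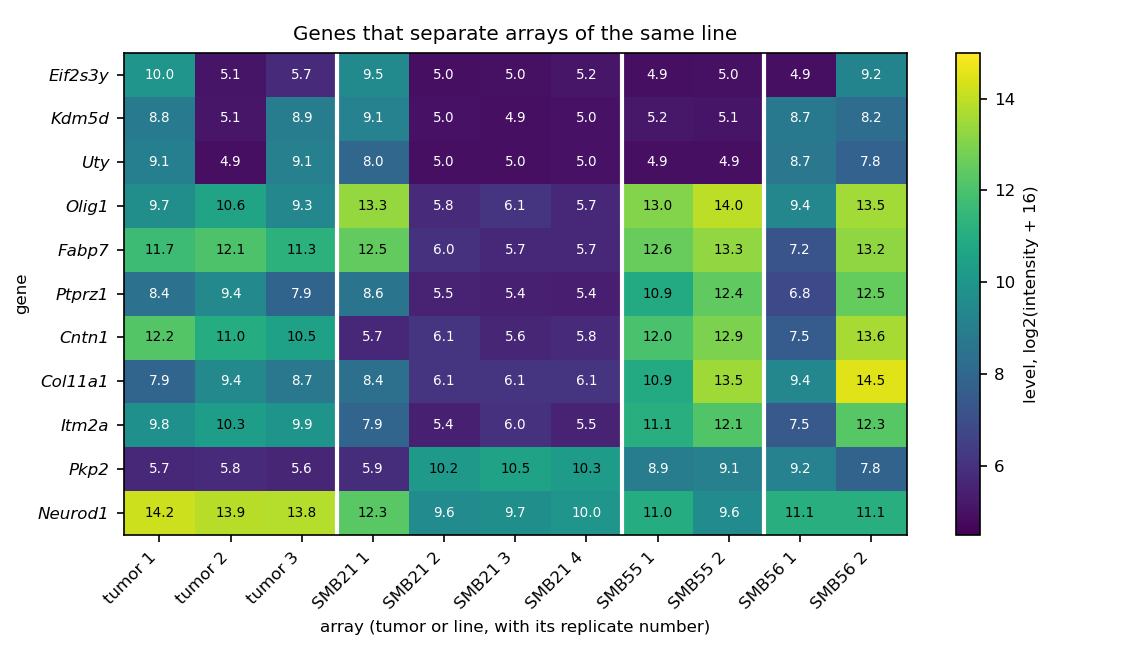
Colour gives the log2(intensity + 16) level of 11 genes (rows) on the 3 tumor and 8 parental SMB arrays (columns). SMB21 array 1 differs from SMB21 arrays 2 to 4 in Eif2s3y (9.54 against 4.95 to 5.15), Olig1 (13.35 against 5.72 to 6.13) and Pkp2 (5.89 against 10.20 to 10.54), and the SMB56 arrays differ from each other in Fabp7 (7.21 and 13.24).

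The same arrays stood apart over the genome. Over all genes SMB21 array 1 correlated with the other SMB21 arrays at most at 0.971, while arrays 3 and 4 correlated at 0.996. SMB56 arrays 1 and 2 correlated at 0.944, below the 0.98 between SMB56 array 2 and SMB55 array 2. From SMB21 array 1 to the mean of the other SMB21 arrays 122 genes differed by more than 2 in log2 level, between the SMB56 arrays 383 and between the SMB55 arrays 92. Arrays of a tumor and a line correlated at 0.917 to 0.949 and arrays of different lines at 0.941 to 0.98. Counts of lists below are therefore also given without both SMB21 array 1 and SMB56 array 1, and for genes of glycolysis with the arrays numbered 1 alone and left out. With only 2 arrays of SMB56, the values do not show which of them is unlike its line.

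Parental SMB cells and primary tumors differed in 1686 of 12393 genes (13.6%). Of these, 1018 (8.21% of all genes) were higher in SMB cells and 668 (5.39%) were lower, and 774 differed at least 2-fold. Large differences were mostly losses: 58 genes were lower in SMB cells by 8-fold or more and 6 were higher by as much. The median difference over all genes was 0.03. The counts of lists below are to be set beside these shares of 8.21% higher and 5.39% lower. The 8 parental arrays lay wholly above the tumors in 1397 genes (11.3%) and wholly below them in 1138 (9.18%), and in 1501 of the called genes the arrays did not overlap.

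These counts varied with the samples left out, which also leaves fewer values in the fit. Without tumor 1, 2 or 3 the calls numbered 606, 1238 and 486. Without line SMB21, SMB55 or SMB56 they numbered 1190, 1263 and 499, and without SMB56 array 2 they numbered 1001. Without SMB21 array 1 and SMB56 array 1 they numbered 1245. With every array centred on its own median the split turned, to 525 higher and 1212 lower (30.2% higher, against 60.4%), because the median difference over all genes became -0.19. Quantile normalization gave 50.5% higher. In none of these settings was a gene called opposite to its call here.

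The 15 largest losses by the rule for named genes included genes of macrophages and of neurons. Ctss, a lysosomal protease of macrophages, was 12.17, 11.94 and 12.84 in the 3 tumors and 5.32 to 5.59 (median 5.43) on the parental arrays, a difference of -6.89 (SE 0.24, adjusted p = 0.000368). Lyz2, lysozyme of macrophages, was 12.90, 11.94 and 12.92 in the tumors and 5.85 to 6.21 on the parental arrays, a difference of -6.53 (SE 0.28, adjusted p = 0.000456). No parental array came near a tumor in either gene. Lyz1 is a near-identical copy of Lyz2: its brightest probe set differed by -7.75 and its dimmest by -0.81, so how much of the signal is its own is uncertain. The complement genes C1qa and C1qb differed by -5.04 and -5.46, Tyrobp, a signalling adaptor of myeloid cells, differed by -4.81, and Mpeg1, a pore-forming protein of macrophages, by -4.86.

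Among the neuron genes, Bex1, expressed in developing neurons, was 12.31, 12.44 and 10.80 in the tumors and 4.86 to 5.09 on the parental arrays (-6.90, SE 0.44, adjusted p = 0.00174). Stmn2, a microtubule regulator of growing axons, was 12.82, 12.51 and 12.45 in the tumors and 6.24 to 8.67 on the parental arrays (-5.77, SE 0.23, adjusted p = 0.000382). The groups did not overlap, though SMB21 array 1, at 8.67, lay above the other 7 parental arrays. Slc17a6, the vesicular glutamate transporter of young granule neurons, differed by -5.13 (SE 0.41), and Scg2, a protein of secretory granules, by -4.71 (SE 0.40). Spop, the substrate adaptor of a ubiquitin ligase that acts on Gli proteins, was 11.88, 11.99 and 10.57 in the tumors and 6.42 to 8.42 on the parental arrays (-4.44, SE 0.43, adjusted p = 0.00571), and its second probe set differed by -2.84. The other falls were of Nap1l5 (-4.69), Rgs5 (-4.52), a marker of pericytes, and Selenop (-4.25), a selenium transport protein.

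The largest gain was of Wif1, a secreted Wnt inhibitor, which was 5.89, 6.03 and 5.82 in the tumors and 8.38 to 11.38 (median 9.99) on the parental arrays. Its difference of 3.78 (SE 0.36, 13.7-fold, adjusted p = 0.00566) was called in every one of the 29 alternative settings. Cth, which makes cysteine from cystathionine, was 7.53, 8.01 and 5.99 in the tumors and 9.75 to 11.61 on the parental arrays (3.59, SE 0.56, adjusted p = 0.0177), and it lost its call without tumor 1 or line SMB56. Slc9a3r1, a scaffold protein under the cell membrane, had the smallest spread of these genes, at 7.66, 7.64 and 7.81 in the tumors and 9.97 to 10.72 on the parental arrays (2.68, SE 0.11, adjusted p = 0.000369).

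Trib3, a target of ATF4, was 9.52-fold higher and Scd1, a fatty acid desaturase, 10.3-fold higher, and both were called in all settings. Notch1 and Yap1, a receptor and a transcriptional co-activator that promote growth of progenitor cells, differed by 2.78 (SE 0.39) and 2.65 (SE 0.37). Without line SMB56 neither was called, and Notch1 was not called without tumor 3. Pkp2, a desmosome protein, differed by 3.23 (SE 0.20, adjusted p = 0.00156), but SMB21 array 1, at 5.89, lay near the tumors (5.62 to 5.79) and the other parental arrays between 7.83 and 10.54. With the arrays numbered 1 alone its adjusted p was 0.152. Neat1, a nuclear non-coding RNA, differed by 2.85 (SE 0.51, adjusted p = 0.0243) and lost its call in 11 settings, among them those without tumor 1, 2 or 3, without line SMB21 or SMB56, without SMB56 array 1 or 2 and without SMB55 array 2 (adjusted p = 0.0559 to 0.0998 over these). The remaining gains were Hspb8 (3.10), Mr1 (2.91), Grhpr (2.79), Cyb5r1 (2.72), Kdelr3 (2.70) and Padi2 (2.60). Of these 6, Mr1 and Grhpr were called in all settings, whereas Hspb8, Cyb5r1 and Padi2 lost the call without tumor 3, and Kdelr3 and Padi2 without SMB55 array 2. Hspb8 and Cyb5r1 also lost it without line SMB56, Cyb5r1 and Padi2 without SMB21, Padi2 without tumor 1, and Cyb5r1 without SMB56 array 2.

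**Figure D2:**
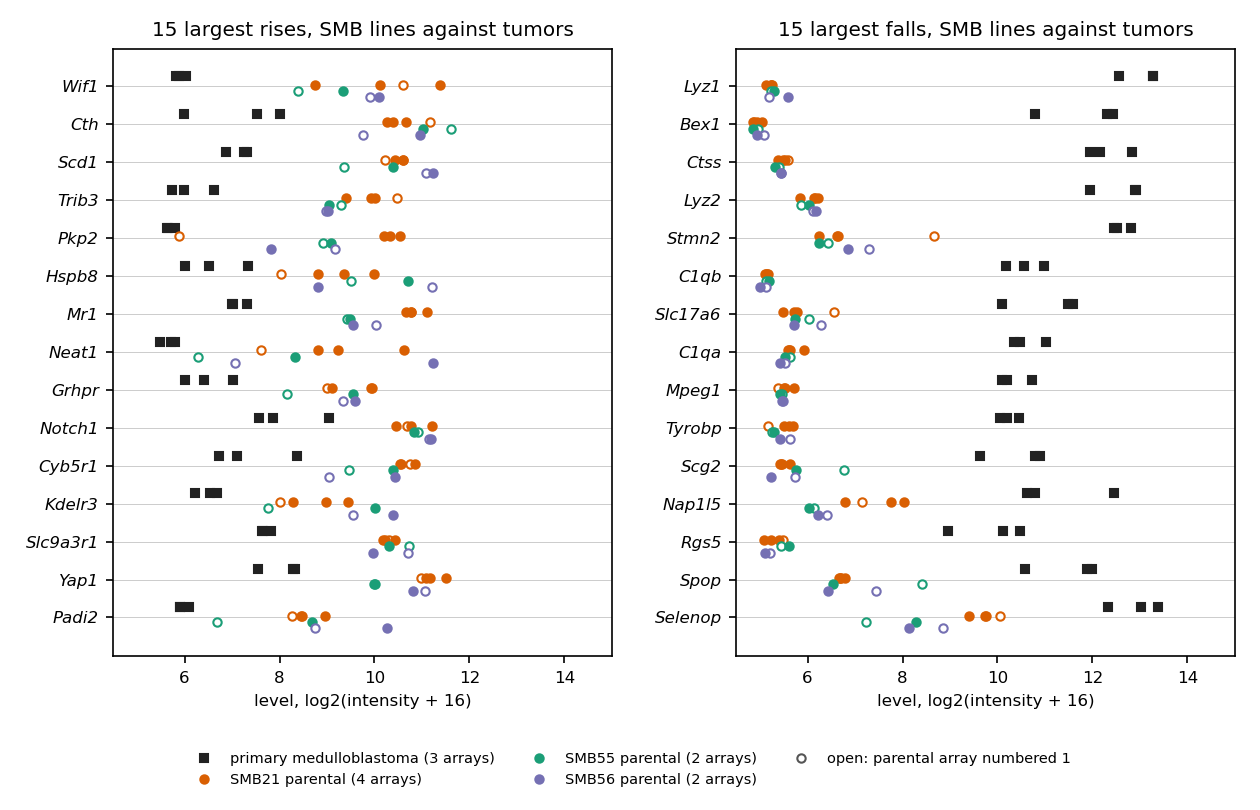
Each row is a gene and the axis is log2(intensity + 16); squares are the 3 tumors and circles the 8 parental arrays coloured by line, open for arrays numbered 1. In the 15 largest rises and 15 largest falls the squares and circles do not overlap, which the rule for these genes required, and the open circle of SMB21 for Pkp2, at 5.89, lies beside the squares.

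Markers of microglia and macrophages, the resident and infiltrating phagocytes of the brain, had the largest median difference of the 36 lists. Of 23 measured, 0 were higher and 20 lower in SMB cells, with a median difference of -3.04 against 0.03 over all genes and with 5.39% of all genes lower. Called members outside the largest losses ranged from Csf1r, the receptor for macrophage growth factor (-3.99, SE 0.29), and Aif1 (-2.79, SE 0.18) to Cd14 (-0.71). Itgam (-0.21), Spi1 (0.05) and Cd74 (-0.70) were not called. The mean level of the list was 8.87 to 9.32 in the tumors and 5.70 to 5.91 on the parental arrays, with summed intensities of 24942 to 39718 and of 888 to 1135. The count was 20 without SMB21 array 1 and SMB56 array 1, and 17 to 20 over all settings. In whole tissue, fewer cells of a type and less RNA per cell cannot be told apart.

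Other cell types of the tumor tissue gave smaller differences, beside 8.21% of all genes higher and 5.39% lower. Of 19 markers of endothelium and pericytes 0 were higher and 7 lower (median -0.60), led by Rgs5, by the PDGF receptor Pdgfrb (tumors 7.37, 6.54 and 7.17, parental arrays 4.81 to 4.97, -2.12, SE 0.22, adjusted p = 0.00668) and by the tight junction protein Cldn5 (-2.29, SE 0.46). Without tumor 1 or line SMB56 the count was 3, without line SMB21 4 were lower and 1 higher, and without SMB21 array 1 and SMB56 array 1 it was 7. The defining endothelial genes Pecam1 (-0.17), Cdh5 (-0.60), Tie1 (0.03) and Kdr (-0.24) were not called. Of 17 markers of lymphocytes and granulocytes 2 were lower, Nkg7 and S100a8, with list levels of 6.05 to 6.12 in the tumors and 5.69 to 5.94 in the lines (0 lower without line SMB56, 1 without tumor 3, and 2 without SMB21 array 1 and SMB56 array 1). Of 3 red blood cell markers 0 were called by limma, also at an unadjusted p under 0.05, which 3946 of all 12393 genes passed. Their summed intensity was 110 to 125 in tumors and 97 to 128 on the parental arrays.

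Fibroblast and meninges markers went both ways, with Foxc1 and Igf2 higher and Col3a1, a fibrillar collagen, lower (-3.23, SE 0.60; not called without tumor 1 or any 1 line). None of the 16 was called without tumor 1 or line SMB56, 1 without tumor 3 or line SMB55, and 1 higher and 1 lower without SMB21 array 1 and SMB56 array 1. A second probe set of Foxc1 differed by -0.05. H2-Aa, a class II antigen presentation gene, was 7.19, 10.69 and 9.25 in the tumors and 5.17 to 5.57 on the parental arrays (-3.71, SE 0.84, adjusted p = 0.0421), and lost its call without tumor 2 or 3, any single line, or SMB56 array 2. In the matrix protease, annexin and S100 list 6 of 23 were lower and 1 higher (median -0.21), or 7 and 1 without SMB21 array 1 and SMB56 array 1. Anxa1 was 8.35, 8.57 and 8.56 in the tumors and 6.10 to 6.38 on the parental arrays (-2.28, SE 0.10, adjusted p = 0.000456). Lgals3, a galectin that macrophages also make, differed by -3.66 (SE 0.30), S100a6 by -2.82 and Timp1 by -1.29, and these 4 were called in all settings. Anxa3 (-1.71) was called in all 28 settings that tested it. Another galectin, Lgals1, was the 1 gene higher (1.65, SE 0.28; not called without tumor 1 or 3 or line SMB55 or SMB56). Mmp2, a matrix protease, was lower (-2.60, SE 0.38; not called without tumor 3 or line SMB56). The macrophage markers moved with these genes, and their part in them was not tested.

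**Figure D3:**
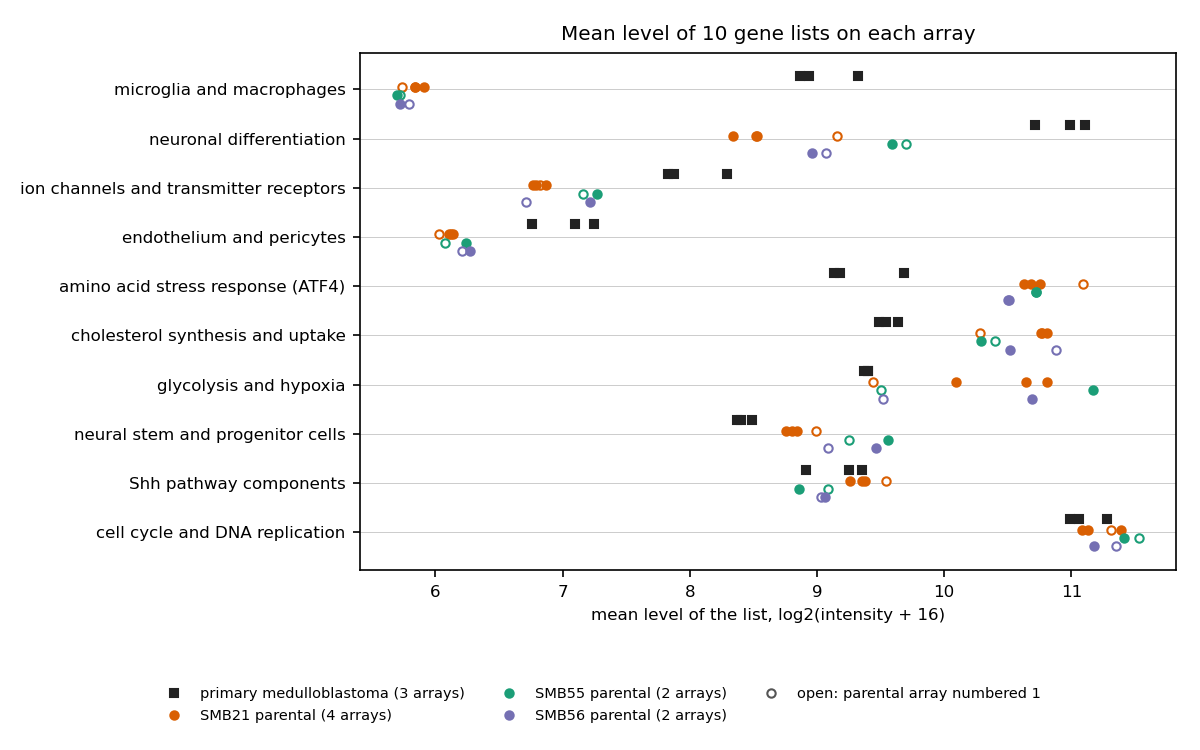
Points give the mean log2(intensity + 16) level of the measured members of 10 gene lists on each of the 11 arrays, by tumor or line. The microglia list stands at 8.87 to 9.32 in tumors and 5.70 to 5.91 on all parental arrays, and the ATF4 list at 9.13 to 9.68 and 10.50 to 11.09.

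Genes of neuronal differentiation were lower in SMB cells. Of 23 measured, 0 were higher and 13 lower, with a median of -1.59, and the list level was 10.71 to 11.11 in the tumors against 8.34 to 9.70 on the parental arrays. Beyond Bex1 and Stmn2, Dcx, a microtubule protein of migrating neurons, was 12, 12.19 and 12.53 in the tumors and 9.39 to 11.11 on the parental arrays (-1.85, SE 0.20, adjusted p = 0.00754). Map2, of dendrites, differed by -1.82 (SE 0.20) and Ina, a neuronal intermediate filament, by -1.52 (SE 0.20), and neither overlapped. Ina was not called without tumor 3, with the arrays numbered 1 alone or with the line as a random block. Snap25 and Elavl4, of synaptic release and of neuronal RNA binding, differed by -3.77 and -3.59. Nefl (1.47) and Nefm (1.20), filament genes with positive differences, were not called. The count was 12 without SMB21 array 1 and SMB56 array 1, and 7, 6 and 6 without tumor 1, tumor 3 and line SMB56.

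Of 15 markers of granule neuron precursors 0 were higher and 3 lower, and of 15 markers of mature granule neurons and synapses 0 were higher and 2 lower, beside 5.39% of all genes lower. Neurod1, a transcription factor of differentiating granule cells, was 14.21, 13.87 and 13.82 in the tumors and 9.55 to 12.32 on the parental arrays (-3.37, SE 0.25, adjusted p = 0.0028), and SMB21 array 1 was the parental array nearest to the tumors. Zic1 and Tcf4, transcription factors of the precursors, differed by -0.46 and -0.65, and neither was called without any 1 tumor, any 1 line or SMB56 array 2. The precursor count was 1 without tumor 1, tumor 3, line SMB21, line SMB56 or SMB56 array 2, and 2 without SMB21 array 1 and SMB56 array 1. Atoh1, which defines the precursors, was 12.60, 11.25 and 12.71 in the tumors and 11.79 to 12.97 on the parental arrays (0.28, 95% interval -0.74 to 1.30, adjusted p = 0.679). The mature markers called lower were Syp and Reln, at -2.15 and -1.28, and 1 was called without SMB21 array 1 and SMB56 array 1. Syp lost its call without tumor 2 or 3 or line SMB21 or SMB56, and Reln without any 1 tumor, without line SMB21 or SMB56 and without SMB56 array 1 or 2.

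Channels, receptors and guidance molecules of neurons included further losses. Of 26 ion channel and transmitter receptor genes 0 were higher and 7 lower (median -0.72), or 5 without SMB21 array 1 and SMB56 array 1, and 3 without tumor 3 or line SMB56. Kcna1, a potassium channel of axons, was 11.76, 10.72 and 10.13 in the tumors and 6.09 to 7.31 on the parental arrays (-4.15, SE 0.41, adjusted p = 0.00626). Cacnb4, a calcium channel subunit, differed by -3.41 (SE 0.63), and lost its call without tumor 3, line SMB21 or line SMB56. Gria2, an AMPA receptor subunit, differed by -1.86 (SE 0.20) and lost its call without SMB56 array 1. Of 29 axon guidance and adhesion genes 1 was higher and 6 lower (median -0.54), with 3 and 2 lower without tumor 1 and tumor 3, and 5 without SMB21 array 1 and SMB56 array 1. L1cam, an adhesion molecule of growing axons, differed by -2.25 (SE 0.31; not called without tumor 3) and Sema3a, a repellent cue, by -1.33 (SE 0.13). The 1 gene higher was the ephrin receptor Epha4, at 5.72, 6.22 and 5.98 in the tumors and 7.5 to 8.96 on the parental arrays (2.05, SE 0.25, adjusted p = 0.0108).

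A gain ran through the amino acid stress response, the genes that the transcription factor ATF4 turns on when amino acids run short or the endoplasmic reticulum is stressed. Of 36 measured, 19 were higher and 0 lower, with a median of 1.16, beside 8.21% of all genes higher. All 36 differences were above 0. At an unadjusted p under 0.05 by limma, 29 were higher and 0 lower, and 3946 of all 12393 genes passed that cut in either direction. The list level was 9.13 to 9.68 in the tumors and 10.50 to 11.09 on the parental arrays. Slc6a9, a glycine transporter, was 7.27, 7.42 and 6.71 in the tumors and 9.03 to 9.69 on the parental arrays (2.08, SE 0.20, adjusted p = 0.00571). Phgdh, the first enzyme of serine synthesis, was 12.22, 11.70 and 11.76 in the tumors and 13.20 to 13.89 on the parental arrays (1.59, SE 0.21, adjusted p = 0.0119). The groups overlapped in neither gene, and both were called in all settings.

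By role, the transcription factors Atf4 (1.04), Atf3 (1.44) and Ddit3 (1.25) were called, Atf3 not without SMB56 array 1, and Atf5 (1.80) and Cebpb (1.51) were not called. Of the serine and one-carbon enzymes Psph (2.29, SE 0.34) and Mthfd2 (1.94, SE 0.34) were called and Shmt2 (1.15) was not. Trib3 and Eif4ebp1 (2.30, SE 0.37), an inhibitor of translation, and the transaminase Gpt2 (2.33, SE 0.33) were called, whereas Asns, the asparagine synthetase, differed by 2.10 (SE 0.56) with an adjusted p of 0.063. The carrier Slc7a11 (0.26), the tRNA synthetases Sars (0.74), Wars (0.41), Gars (0.52) and Nars (0.54), and Slc38a2 (0.06) were not called. The count was 16 without SMB21 array 1 and SMB56 array 1, 9 without tumor 3 or line SMB56 and 12 without line SMB21. The chaperone and unfolded protein list, which such stress also involves, had 2 of 18 higher, Creld2 (1.10) and Sdf2l1 (1.47), with a median of 0.15. Without tumor 1 or tumor 3 it had 1 higher, without line SMB55 1 higher and 1 lower, without line SMB56 0, and without SMB21 array 1 and SMB56 array 1 it had 2 higher.

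ATF4 binds amino acid response elements in promoters. These were searched for as TGATGNAAT or TGATGAAAC on both strands, which differ in their last letter and cannot both match at 1 start, in RefSeq promoters (GRCm38.p6) from 250 bases before to 50 after each start site. Of 27025 symbols 1.31% held a match, and of 9887 genes on the array 0.809%. Of the 36 list members 30 had a promoter and 5 of these a match, of which Asns, Gars and Fgf21 were not called. Of the 17 called members with a promoter 2 held a match. The promoters of the called members with a match are shown in full, with the match in capitals. Aars, an alanyl-tRNA synthetase that was higher by 1.09 (SE 0.23, adjusted p = 0.0332), has its promoter at chr8:111033592-111033891 on the + strand, with the match on the opposite strand at position -113 from the start. Nupr1, a stress-induced nuclear protein that was higher by 2.49 (SE 0.37, adjusted p = 0.0161), has its promoter at chr7:126625421-126625720 on the - strand, with the match on the opposite strand at position -111.
Aars: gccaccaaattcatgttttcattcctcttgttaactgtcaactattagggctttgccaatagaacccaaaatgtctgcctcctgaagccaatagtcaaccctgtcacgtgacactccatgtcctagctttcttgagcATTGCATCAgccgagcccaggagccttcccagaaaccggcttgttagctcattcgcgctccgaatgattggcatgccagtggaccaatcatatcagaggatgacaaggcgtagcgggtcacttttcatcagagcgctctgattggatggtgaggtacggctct
Nupr1: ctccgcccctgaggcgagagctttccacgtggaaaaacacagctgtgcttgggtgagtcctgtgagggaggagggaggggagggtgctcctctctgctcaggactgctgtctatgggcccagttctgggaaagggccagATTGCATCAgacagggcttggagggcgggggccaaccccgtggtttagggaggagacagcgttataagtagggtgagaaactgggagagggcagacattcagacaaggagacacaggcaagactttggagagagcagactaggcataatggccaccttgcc
Both matches have the same letters, ATTGCATCA. A match describes these letters only and was not tied to binding in these cells.

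Cholesterol synthesis was higher as well. Of 18 measured genes 11 were higher and 0 lower (median 0.97), beside 8.21% of all genes higher, and all 18 differences were above 0. The list level was 9.49 to 9.64 in the tumors and 10.28 to 10.88 on the parental arrays. Msmo1, a sterol oxidase, was 9.56, 9.80 and 9.80 in the tumors and 11.24 to 12 on the parental arrays (1.91, SE 0.13, adjusted p = 0.00194). Fdps, which makes farnesyl diphosphate, differed by 1.96 (SE 0.18), Sqle, the squalene epoxidase, by 1.52 (SE 0.14) and Cyp51, a sterol demethylase, by 1.52 (SE 0.15). These 4 were called in all settings, although a second probe set of Fdps differed by 0.01. Srebf2, the transcription factor of the pathway, was 9.11, 9.33 and 9.10 in the tumors and 10.02 to 10.97 on the parental arrays (1.26, SE 0.12, adjusted p = 0.00584). Hmgcs1 (0.27), Mvd (0.45) and Lss (0.72) were not called.

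The count was 9 without SMB21 array 1 and SMB56 array 1, 7 without tumor 3 and 6 without line SMB56. The sterol regulatory element TCACNCCAC was found, on either strand of the same windows, in 1 of 14 cholesterol genes with a promoter, Hmgcs1, in 0 of the 8 called ones, and in 1.44% of all symbols.

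Genes of fatty acid synthesis were called in both directions. Of 11 genes 5 were higher and 1 lower. Those higher were Scd1 (tumors 7.25, 7.31 and 6.87, parental arrays 9.35 to 11.23), Scd2 (1.22, SE 0.16), Fads2 (1.04), Fads1 (1.06) and Elovl5 (0.42), which are desaturases and, for Elovl5, an elongase. Fasn (0.46), Acaca (0.05) and Acly (0.04), which build the chain, were not called. The 1 gene lower was the regulator Srebf1, at 12.94, 13.26 and 12.61 in the tumors and 10.86 to 12.27 on the parental arrays (-1.25, SE 0.25, adjusted p = 0.0305). So the 2 SREBP genes differed in opposite directions. Srebf1 lost its call without any 1 tumor and without line SMB21 or SMB55, and the number higher was 2, 1, 3 and 2 without tumor 1, tumor 3, line SMB55 and line SMB56, and 3 without SMB21 array 1 and SMB56 array 1.

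Genes of glycolysis and hypoxia divided the arrays within each line. Of 24 measured, 12 were higher and 0 lower in the line means (median 0.99). Fits to the 11 single arrays called fewer, with 4 higher and 0 lower under a random block for the line and 4 higher and 1 lower with a term for each line. The list level was 9.37 to 9.40 in the tumors, 9.44 to 9.52 on the 3 parental arrays numbered 1 and 10.09 to 11.17 on the other 5, and 20 of 24 members were higher on those other arrays in all 3 lines. With the arrays numbered 1 alone 4 genes were higher and 1 lower, and with those arrays left out 15 were higher and 0 lower. The count was 7 without tumor 3, 6 without SMB55 array 2, 5 without SMB56 array 2 and 12 without SMB21 array 1 and SMB56 array 1. Growth factor arrays, also numbered 1, stood at 11.03 to 11.87 and RAS arrays at 10.34 to 12.07.

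Pdk1, which keeps pyruvate from the mitochondria, was 6.80, 6.73 and 7.96 in the tumors. On the arrays numbered 1 it was 6.97, 7.75 and 7.29 in SMB21, SMB55 and SMB56, and on the others 10.20 to 11.79. The hypoxia-induced angiogenic factor Vegfa was 7.90, 7.37 and 8.0 in the tumors, 9.37, 8.87 and 8.13 on those arrays numbered 1 and 9.88 to 12.22 on the others. Both genes were chosen after their values were seen. Adm, a peptide hormone of the same response, lay between 5.34 and 6.74 on the arrays numbered 1, next to 5.43 to 5.99 in the tumors, and between 7.55 and 9.17 on the others.

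Some members were higher on every parental array. Pgam1, a glycolytic enzyme, was 11.23, 10.92 and 11.20 in the tumors and 11.76 to 12.88 on the parental arrays (1.23, SE 0.11, adjusted p = 0.00501). Egln3, a prolyl hydroxylase that senses oxygen, was 6.67, 7.93 and 7.46 in the tumors and 8.94 to 10.78 (2.47, SE 0.32, adjusted p = 0.0119). Higd1a (1.14) and the pyruvate kinase Pkm (1.39) likewise did not overlap, and these 4 were called in all settings. P4ha2, a collagen prolyl hydroxylase, differed by 1.85 (SE 0.08), with 0.76 and an adjusted p of 0.099 on arrays numbered 1 alone, and it was not called without SMB55 array 2 (adjusted p = 0.119), or in any of the fits to single arrays, with a random block for the line, the replicate number as a block or a term for each line. Over all genes measured, 37 genes, among them Neat1, Bnip3, Slc2a1 and Pgk1, were higher by more than 1 on the arrays not numbered 1 in every line, and 8 genes were lower. No batch is stated in the labels, and the part of the array number in these differences was not tested.

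**Figure D4:**
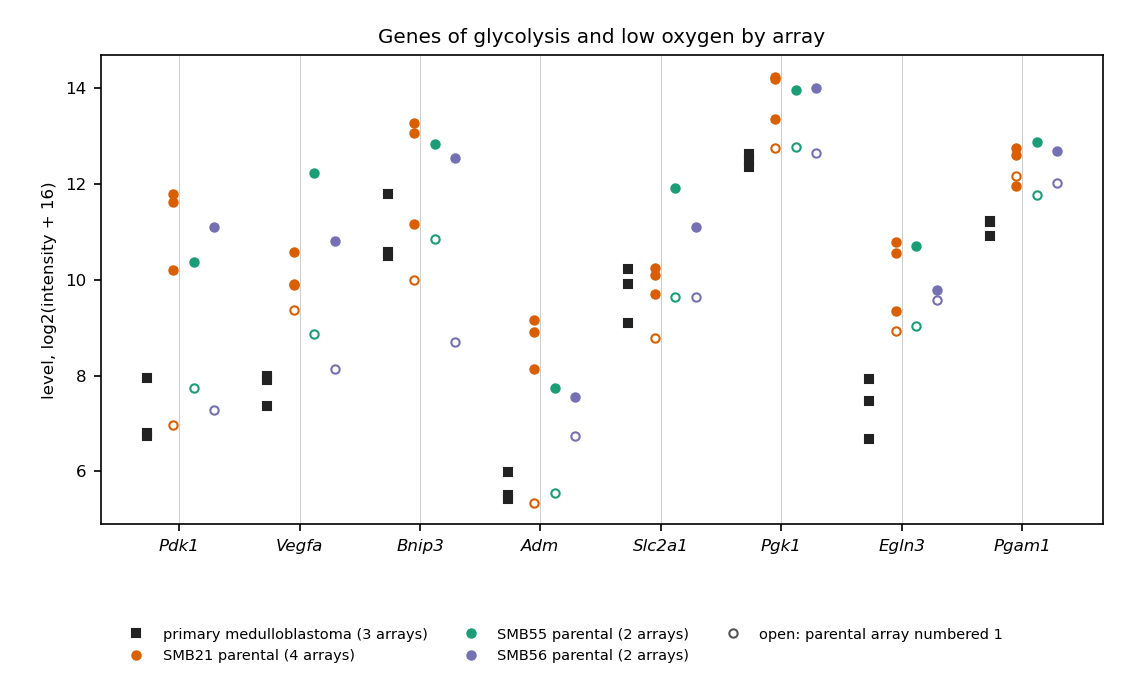
Each column shows log2(intensity + 16) of 1 gene of the glycolysis and hypoxia list on the 3 tumor and 8 parental arrays, with open circles for arrays numbered 1. For Pdk1 the arrays numbered 1 lie at 6.97 to 7.75 beside the tumors at 6.73 to 7.96 and the other parental arrays at 10.20 to 11.79, while Egln3 and Pgam1 are higher on all 8.

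Among stem and progenitor genes, which include Notch ligands and receptors that keep precursors undifferentiated, 4 of 20 were higher and 0 lower (median 0.75), and 3 without SMB21 array 1 and SMB56 array 1. The share higher over all genes was 8.21%. The ligand Dll1 was 6.53, 6.63 and 6.67 in the tumors and 7.19 to 9.53 on the parental arrays (2.02, SE 0.18, adjusted p = 0.00489). SMB21 array 1 was the lowest of these, and with arrays numbered 1 alone the adjusted p was 0.131. Dll3 differed by 1.75 (SE 0.39) and the filament Nes by 0.93 (SE 0.22), and neither was called without tumor 3, any 1 line or SMB56 array 2. The count was 1 without tumor 3 or line SMB56 and 2 without SMB56 array 2. Sox2, a stem cell factor, was 8.39, 9.20 and 7.19 in the tumors and 8.98 to 12.61 on the parental arrays (2.61, SE 0.66, adjusted p = 0.0545). It overlapped the tumors and was called in 10 settings, including those without line SMB21 and without SMB21 array 4. The Notch targets Hes1 (0.88) and Hes5 (0.78) were not called.

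Components of the Shh pathway were not called. Of 11 measured 0 were higher and 0 lower by limma (median -0.03), beside 13.6% of all genes called, and at an unadjusted p under 0.05 0 was higher and 1 lower. At that cut 3946 of all 12393 genes passed in either direction. Gli1, the transcription factor that reads out the pathway, was 9.22, 10.03 and 9.64 in the tumors and 8.62 to 10.38 on the parental arrays (-0.03, 95% interval -0.73 to 0.67, adjusted p = 0.948). Smo, the signal transducer, differed by 0.14 (interval -0.50 to 0.78) and Ptch1 by -0.32 (interval -1.35 to 0.70), and both overlapped. Differences within these intervals were not detectable with 3 tumors and 3 lines. A second probe set of Smo averaged 9.17 in the tumors and 10.16 in the lines, a difference of 1.0, outside the interval of the first. A second probe set of Ptch1 differed by 0.06. The inhibitor Sufu was 10.06, 10.40 and 10.64 in the tumors and 8.80 to 10.39 on the parental arrays (-0.90, SE 0.23, adjusted p = 0.0583), its highest value on SMB21 array 1, and without that array, alone or together with SMB56 array 1, it was called lower.

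Among 13 Shh targets 3 were higher and 1 lower (median 0.13, or -0.08 with centred arrays, where 2 were higher and 3 lower). Rab34, of ciliary trafficking, was 9.33, 9.43 and 9.56 in the tumors and 10 to 10.76 on the parental arrays (0.96, SE 0.11, adjusted p = 0.00972) and was called in all settings. Igf2 (2.52, SE 0.58), Fst (0.60) and Bmi1 (-0.52) passed more weakly: 1 target was higher without tumor 1, 2 or 3, line SMB55, line SMB56, SMB21 array 1, SMB55 array 1 or SMB56 array 2, and 2 without SMB55 array 2 or SMB56 array 1. Without SMB21 array 1 and SMB56 array 1 together, 1 was higher and 0 lower. Mycn, which drives growth of precursors, was 12.55, 12.37 and 13.05 in the tumors and 10.23 to 12.30 on the parental arrays, so the arrays did not overlap, but the difference of -1.13 (SE 0.44) had an adjusted p of 0.145. The other probe sets of Mycn differed by only -0.29 and -0.15. Ccnd2, a cyclin, was 13.96, 14.06 and 14.16 in the tumors and 11.77 to 13.68 on the parental arrays (-0.88, SE 0.22, adjusted p = 0.0547). It too did not overlap, and it was called in 8 settings, among them those without line SMB55, SMB55 array 1 or SMB56 array 2 and that with the mean of all probe sets. The other probe sets of Ccnd2 differed by -0.89 to -1.82. Hhip differed by 0.63 (interval -0.85 to 2.11), with SMB21 at 8.55 and both other lines at 6.60.

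**Figure D5:**
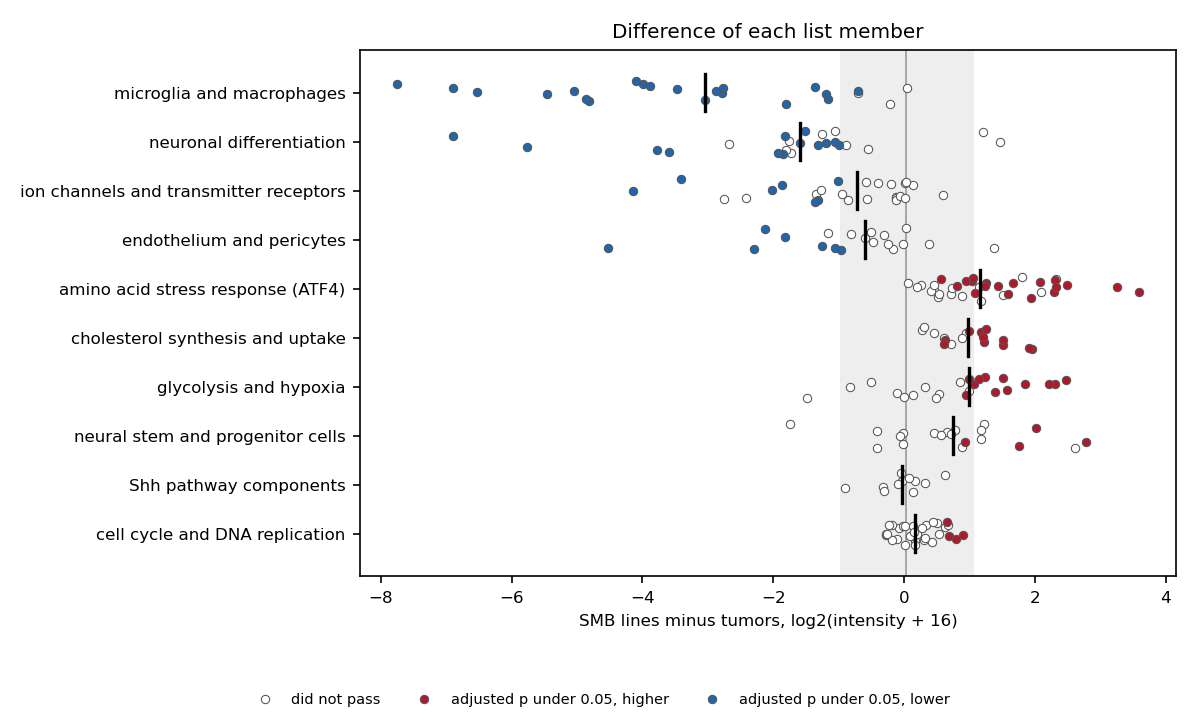
Each point is the difference, parental SMB minus primary MB in log2, of 1 measured member of 10 gene lists, filled at an adjusted p under 0.05, with a black bar at the list median; the grey band spans -0.96 to 1.06, the 5th to 95th percentile of all genes. Microglia and neuronal lists reach -7.75 and -6.90, the ATF4 and cholesterol lists lie wholly above 0, and the Shh components hold no filled point.

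Proliferation genes were near the tumor level. Of 33 cell cycle and replication genes 4 were higher and 0 lower (median 0.17, or -0.04 with centred arrays, where 1 was higher), and 3 without SMB21 array 1 and SMB56 array 1. Over all genes 8.21% were higher. Plk1, a mitotic kinase, was 9.08, 9.21 and 9.22 in the tumors and 9.57 to 10.24 on the parental arrays (0.79, SE 0.10, adjusted p = 0.0119). Mcm5 (0.68), Cdk2 (0.66) and Ccne1 (0.90) lost their calls in 15, 18 and 14 settings. The count was 0 without SMB56 array 2, 1 without tumor 1, tumor 2 or line SMB56, and 2 without tumor 3, line SMB55, SMB21 array 1, SMB21 array 2 or SMB55 array 2. Mki67, the proliferation marker, was 13, 12.81 and 13.24 in the tumors and 12.42 to 13.13 on the parental arrays (-0.23, interval -0.60 to 0.14, adjusted p = 0.351).

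Of the cell cycle inhibitors, Cdkn2b, which blocks Cdk4 and Cdk6, was 8.89, 8.46 and 7.83 in the tumors and 5.52 to 7.20 on the parental arrays (-2.52, SE 0.33, adjusted p = 0.0123). Its neighbour Cdkn2a, which encodes inhibitors of the same kinases and an activator of p53, was 11.01, 11.38 and 11.56 in the tumors and 11.28 to 12.48 on the parental arrays (0.53, SE 0.21, adjusted p = 0.149). So 1 of these neighbours was 5.75-fold lower in SMB cells and the other overlapped the tumors. With the arrays numbered 1 alone, Cdkn2b had an adjusted p of 0.0524. Of 19 Cdk inhibitors and p53 targets 2 were higher and 1 lower, beside 8.21% and 5.39% of all genes. Without SMB21 array 1 and SMB56 array 1 the count was 1 higher and 1 lower. Btg2, a p53 target that slows growth, was higher in all settings (1.43, SE 0.11, adjusted p = 0.00281). Sesn2 of the same list was also called higher (1.05, SE 0.22, adjusted p = 0.0354). Its call was lost in 10 settings, among them those without tumor 2 or 3 or any 1 line. Cdkn1a (-0.28), Mdm2 (-0.47) and Ccng1 (-0.45), other p53 targets, were not called.

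Signalling lists gave few calls, in both directions, beside 8.21% of all genes higher and 5.39% lower. The ERK target Etv5 was 7.82, 7.35 and 7.48 in the tumors and 8.99 to 10.73 on the parental arrays (2.23, SE 0.24, adjusted p = 0.00769) and was called in all settings. The ERK targets otherwise had 1 of 13 higher and 1 lower in all, with Spred2, an inhibitor of the pathway, at -0.80 (not called without tumor 1 or 3 or any 1 line) and Dusp6, a phosphatase induced by it, at -0.30 (adjusted p = 0.435). Of 21 growth factor receptor and RAS pathway genes 2 were higher and 1, Pdgfrb, lower. Without SMB21 array 1 and SMB56 array 1 the count was 1 and 1. The receptor Erbb2 was 5.90, 6.14 and 6.06 in the tumors and 6.46 to 7.66 on the parental arrays (1.04, SE 0.14, adjusted p = 0.0134), and was not called without tumor 3 or line SMB56. The receptor Fgfr1 was also called higher (1.07) and lost its call in 14 settings. Of 26 immediate early genes 2 were higher, Btg2 among them, and 2 lower, or 1 and 2 without SMB21 array 1 and SMB56 array 1. Egr2 of that list was lower by 2.66-fold (-1.41, SE 0.13), and was called in all settings. Ccn2, a matricellular growth factor that YAP induces, differed by -3.25 (SE 0.68, adjusted p = 0.0339) while Yap1 was higher, and its call was lost without tumor 2 or 3, without any 1 line and without SMB56 array 2.

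Besides Wif1, the Wnt list of 19 held Nkd2 higher (0.45, lost in 17 settings) and Lgr5, a Wnt receptor gene of stem cells, lower, at 8.47, 7.20 and 8.48 in the tumors and 5.67 to 6.58 on the parental arrays (-2.05, SE 0.42, adjusted p = 0.0332). Lgr5 lost its call without tumor 1 or 3 or line SMB21 or SMB56. In the insulin-like growth factor list of 14, Igf2 was higher and Igf1 (-1.47, SE 0.28) and Igfbp7 (-2.54, SE 0.51) lower, and each lost its call without tumor 1, line SMB55 or SMB56 array 2 and in other settings. Igf2 was 9.40 in SMB21, 11.26 in SMB55 and 11.42 in SMB56 against 7.69 to 8.45 in the tumors, and its other probe set differed by 0.15. The other probe sets of Igfbp7 differed by -0.05 and -0.53. Of the antioxidant genes 3 of 20 were higher, Sod2 (0.87), Gstm1 (1.54) and Sod1 (0.59), 0 without tumor 3 or line SMB56, and 2 without SMB21 array 1 and SMB56 array 1. Of 13 cilium genes Tulp3 (1.64) and Bbs2 (0.69) were higher, with 0 without tumor 1, tumor 3 or line SMB56 and 1 without tumor 2, line SMB21, either SMB56 array, or SMB21 array 1 and SMB56 array 1 together. Of 28 cytosolic ribosomal proteins 0 were called by limma (median 0.06), with 4 higher and 0 lower at an unadjusted p under 0.05. That cut was passed by 3946 of all 12393 genes in either direction. The called counts of these lists stand beside 8.21% of all genes higher and 5.39% lower.

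Single genes differed widely among the lines. Over the genes the median range of the 3 line means was 0.33 and that of the 3 tumors 0.32, and it exceeded 2 in 308 and 221 genes. The genes given here are the 6 of largest range over lines and over tumors that the rule names, so their levels are a description. Olig1, a transcription factor of oligodendrocyte precursors, was 9.70, 10.62 and 9.35 in the tumors, 13.35, 5.77, 6.13 and 5.72 on SMB21 arrays 1 to 4, 13.04 and 13.97 in SMB55 and 9.38 and 13.53 in SMB56. Fabp7, a fatty acid binding protein of radial glia, was 11.71, 12.07 and 11.26 in the tumors, 12.46 on SMB21 array 1, 5.66 to 5.99 on arrays 2 to 4, 12.58 and 13.28 in SMB55 and 7.21 and 13.24 in SMB56. In both genes SMB21 array 1 lay with SMB55 rather than with its own line. Cntn1, an adhesion molecule of neurons, was 5.64 to 6.14 on all SMB21 arrays, 11.99 and 12.91 in SMB55, and 7.54 and 13.61 in SMB56. Ptprz1, Col11a1 and Itm2a had line means of 6.21, 11.69 and 9.68, of 6.65, 12.21 and 11.93, and of 6.21, 11.62 and 9.86 in SMB21, SMB55 and SMB56.

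As lists, 1 of 13 oligodendrocyte lineage genes was called higher, Cnp (1.62, adjusted p = 0.0488, lost in 17 settings), and list levels ran from 6.40 to 9.26 on the parental arrays around 7.11 to 7.66 in the tumors. Of 18 astrocyte and Bergmann glia genes Apoe (-3.57) and Aqp4 (-2.06) were lower, and neither was called without tumor 1, tumor 2, line SMB21, line SMB56 or SMB56 array 2. Apoe alone lost its call without tumor 3, SMB21 array 1 or SMB55 array 1, and Aqp4 alone without line SMB55, SMB21 array 2, 3 or 4, SMB55 array 2 or SMB56 array 1. Both glial lists stand beside 8.21% of all genes higher and 5.39% lower.

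The tumors varied in other genes. Gabra6, a GABA receptor subunit of mature granule neurons, was 12.60, 5.89 and 9.10 in tumors 1, 2 and 3 and 5.33 to 5.70 on all parental arrays. Syt4, a synaptic vesicle protein, was 12.56, 10.55 and 7.27. Foxd1, a forkhead factor, was 11.82, 6.64 and 12.52, and the parental arrays lay between these at 10.07 to 10.74. Olfm3 was 11.22, 5.56 and 8.89, Tnnc2, a troponin of muscle, 12.54, 6.59 and 6.92, and Gdpd3 6.58, 11.98 and 6.89.

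By chromosome the differences were small. Relative to the median over all genes, the genes of chromosome 13 had medians of -0.29, -0.03 and -0.17 in SMB21, SMB55 and SMB56, and of its 459 genes 2.61% were higher and 10.9% lower. Chromosome 15 had medians of 0.15, 0.12 and 0.12, with 16.4% of 495 genes higher and 4.85% lower, and chromosome 17 had 0.09, 0.18 and 0.07, with 13.9% higher. These compare with 8.21% and 5.39% over all genes.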

How the data were processed

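RNA of 24 mouse samples was measured on Affymetrix arrays, labelled with biotin by the manufacturer's protocol per the labels. The authors deposited 1 linear intensity per probe set and array for 22690 probe sets. Their summary method and normalization are not given in the sources used here. The median intensity of an array lay between 188.8 and 245.1. Arrays have no read depth, and their small number limits the precision.

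Intensities were used as log2(intensity + 16). The platform's annotation gave 1 symbol to 20393 probe sets, several to 691 and none to 1606, and 64 were controls. Of these, 20364 matched the RefSeq gene table (GRCm38.p6) by gene identifier. Each of 12393 genes was represented by its brightest probe set on average over the 24 arrays, and 4956 genes had several. Groups came from the titles. Arrays of a line were averaged, and 3 tumors were compared with 3 line means in limma 3.58.1 (R 4.3.3) by two-sided moderated tests (lmFit and eBayes) with Benjamini-Hochberg adjustment. The fit was tested on simulated data. The 3 cerebella, of 2 ages, were left out of the fit, since their difference in age would enter the spread. Fits with them are alternatives, and an earlier analysis that grouped them gave other counts. The age label of P6 cerebellum replicate 2 conflicts with its title, and the title was used. The replicate numbers were checked as pairs: deviations of same-numbered line and tumor arrays correlated at -0.049 to 0.105, so the numbers were not taken to pair them.

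The members and the 36 gene lists were chosen with earlier results of these data known. Named genes are the 15 largest rises and falls among called genes with at least 1 group mean at or above 8.36, the median of all gene means, whose arrays did not overlap and whose names are not clone-like. To these come the 5 or fewer members with the smallest p among the called ones of a list, set genes of the Shh, ERK and growth pathways, and the 6 genes with the largest range over lines and over tumors. Other called list members in the text were chosen after their values were seen, and uncalled ones serve as examples. Alternatives changed the samples in the fit, blocks, pseudocount, scaling, filter on low genes, probe set rule and variance prior, and left out each tumor, line and array. Leaving out SMB21 array 1 with SMB56 array 1, and a fit with a term for each line, were added after seeing the data. Some list members were not analysed here.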

Additional observations from a re-analysis of the deposited data

Results flagged for a closer look

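Within SMB21, the 1 line with 4 parental arrays, 26 of 185 levels (6 of 36 list means and 20 of 149 named genes) had 1 array far from the other 3. The gap of that array to its neighbour, divided by the range, exceeded the 0.829 of Dixon's test, which chance exceeds in about 1 of 20 groups, and 24 of the 26 lay on array 1.

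Of the list means on SMB21 array 1, astrocytes and Bergmann glia (8.42), the oligodendrocyte lineage (7.49) and Shh targets (10.30) were high. Antigen presentation (7.04), cholesterol synthesis (10.28) and immediate early genes (8.08) were low there.

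Among single genes array 1 was high for the neuronal genes Stmn2 (8.67), Neurod1 (12.32) and Syp (7.98), for Aqp4 (6.63), Slc6a9 (9.69) and Sufu (10.39), and for the genes with a large range over lines Olig1 (13.35), Col11a1 (8.37), Ptprz1 (8.55) and Fabp7 (12.46). It was low for Pkp2 (5.89), Dll1 (7.19), Creld2 (9.45), Fdps (11.47), Sqle (11.41), Bbs2 (8.08), Epha4 (7.59) and Nras (11.69). Array 2 was high for C1qa (5.92), near the lowest level measured, and for Tcf4 (13.36). The Y-linked genes given in the report also set array 1 apart, and what underlies this was not tested.

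Itm2a, a membrane protein of developing cells, was below all tumors on every SMB21 array and above them on every SMB55 array, with line means 5.41 apart. This difference between lines was not tested.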

How the results depend on the processing

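Of 122 called named genes, 49 were called in the same direction in every one of the 29 alternatives that tested them. Of these 49, Anxa3 and Pdgfrb were tested in 28. Another 1 turned its sign: Hspg2, a basement membrane proteoglycan, differed by 0.09 (adjusted p = 0.745) with the mean of all probe sets, against -0.73, and its second probe set by 0.91. Of 27 named genes that were not called, 9 passed in at least 1 setting, among them Sufu, then lower. Of 66 called genes with several probe sets, 63 had all of them on the same side. Being on the same side does not mean a like size. Another probe set lay near 0 for Pdgfrb (-0.04), L1cam (-0.04), Igfbp7 (-0.05), Syp (-0.2) and Tulp3 (0.14), among others.

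The total of 1686 calls (1018 higher, 668 lower, 774 at least 2-fold) was 2552 (1537 and 1015) with P6 and adult cerebella added as separate groups, 3165 (1783 and 1382) with a term for each line on 11 arrays, and 1062 (637 and 425) with the parental arrays numbered 1 alone. With arrays centred on their medians 525 were higher and 1212 lower. With a pseudocount of 64, 516 were at least 2-fold. Leaving out a tumor, a line or an array gave 486 to 1779 calls, with 270 to 1075 higher, 189 to 704 lower and 378 to 803 at least 2-fold. The fewest calls came without tumor 3 (486), line SMB56 (499) and tumor 1 (606). The cerebella as 1 group gave 1373 calls, a random block for the line 2100, a pseudocount of 1 1724, quantile normalization 1369, trend and robust variance 1721, and leaving out the genes of lowest level 1492 of the 9295 then tested. The causes of these differences were not tested, except that fewer samples or genes enter some fits. No setting called a gene in the opposite direction, except 1 gene with the mean of all probe sets.

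With the replicate number as a block, 2112 genes were called (1255 higher, 857 lower), of which 1331 were also called without it. Genes of glycolysis and hypoxia then had 5 higher, against 12. Same-numbered tumor and line arrays were not taken as pairs (correlations of -0.049 to 0.105), but between lines the arrays numbered 1 stood apart in that list, as the report gives.

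Among the lists, 17 to 20 microglia genes were lower in every setting, 9 to 29 ATF4 genes and 6 to 13 cholesterol genes higher, and 6 to 17 genes of neuronal differentiation lower. The arrays' number limits these values: 3 tumors stand against 3 lines, and falls of genes near the lowest level of 4.72 are understated.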
